A study of Homo sapiens with 20 samples.

Results

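The B cell receptor complex and the proteins that first carry its signal were followed through 9 genes in 20 arrays: CD79A, CD79B, MS4A1, CD22, BLK, BTK, SYK, BLNK and LYN. A probe set was taken for a gene where the platform annotation gave it that symbol and no other, and each of the 9 genes had 1 such probe set. They are 9 of the 18416 genes with a probe set of their own. Testing was limited to genes that reached a log2 value of 5 on 2 or more arrays, a floor that left 15850 genes and 7 of the 9. MS4A1, with values from 3.49 to 4.29, and BTK, from 3.88 to 4.96, stayed under the floor in all 20 arrays.

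The B cell receptor is a membrane immunoglobulin held by a heterodimer of CD79A and CD79B, whose cytoplasmic tails carry the activation motifs. On antigen binding, SRC family kinases such as LYN and BLK phosphorylate these motifs, SYK docks on them, and the adaptor BLNK gathers BTK and phospholipase C to start calcium and NF-kB signalling, while CD22 recruits phosphatases that dampen the signal. Classical Hodgkin lymphoma arises from germinal centre B cells that have lost much of this apparatus.

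The lines, established from classical Hodgkin lymphoma (cHL) as labelled, were UHO-1, SUP-HD1, KM-H2, L428 and, by its label, L1236. All 5 stably carried FOXO1(3A)ER, a FOXO1 mutant that AKT cannot inactivate, joined to an oestrogen receptor domain that keeps it inactive until 4-hydroxytamoxifen (4-OHT) binds, so the vehicle cells carried the fusion too. Each line was measured after 24 h with 4-OHT or with ethanol vehicle, 2 arrays per arm, and the comparison asks which transcripts respond when the fusion is switched on. The labelled dose of 200 µM stands in a protocol text that names KM-H2 and L428 with a different fusion, KLF4ER, so it is quoted only as labelled. No line without the fusion was given 4-OHT among the arrays used here, so effects of 4-OHT and of FOXO1 cannot be told apart. The labels say that the experiment was done 2 times but not whether both arrays of a group stem from different cultures, so the p-values reflect only array-to-array spread, which may be technical.

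RMA (robust multichip average) normalization had been run separately on the 8 arrays of KM-H2 with L428, whose medians were 5.67 to 5.71, and on the other 12, with medians of 6.26 to 6.41. Levels of the members are set against each other within a set only, and the marker levels given here across both sets are a description, with no test. The arrays labelled L1236 stood apart from the other lines in their cell type markers. All 7 T cell markers examined had vehicle means above 7 in them. CD3E, a chain of the T cell receptor complex, lay at 12.22 log2 units there and between 4.40 and 5.59 in the vehicle means of the other 4 lines. CD3D lay at 11.35 against 4.82 to 5.34, CD3G at 11.91 against 4.44 to 5.83, CD2 at 9.76 against 4.11 to 5.57 and CD28 at 8.14 against 3.53 to 4.51. CD7 and CD8A were less separated, at 10.16 against 7.63 to 8.30 and 8.93 against 5.37 to 7.48. Of the Hodgkin cell markers, IRF4 lay at 6.31 in these arrays and from 11.45 to 12.20 elsewhere, and TRAF1 at 5.36 against 7.20 to 10.17. CCL22 lay at 6.37 against 5.41 to 12.07. TNFRSF8 (7.76), GATA3 (9.85), FSCN1 (7.69), FUT4 (7.86) and CCL17 (7.26) stayed above 7. That made 5 of 8 Hodgkin cell markers above 7, beside 6 in KM-H2, 7 in L428 and 8 in UHO-1 and in SUP-HD1. Genes of immature lymphocytes, chosen after their values were seen, followed the T cell markers: DNTT lay at 11.12 and CD1A at 9.94, both below 5 in the other lines, and HLA-DPA1, an MHC class II chain, lay at 4.82 against 11.10 to 12.07. Within their own set, beside UHO-1 and SUP-HD1, these arrays had the lowest vehicle mean of every Hodgkin cell marker but TNFRSF8. FSCN1 lay at 7.69 against 10.44 and 10.94, GATA3 at 9.85 against 10.93 and 10.41, and TNFRSF8 at 7.76 against 11.07 and 7.14. A level of 7 is only descriptive, and the stromal marker COL1A1 lay above it there too (7.35). The T cell markers, IRF4, TRAF1 and HLA-DPA1 of these arrays therefore went against their label, while 5 of 8 Hodgkin cell markers lay above 7. Which cells these arrays came from was not tested. They are called the arrays labelled L1236 throughout, and the averages, list counts and F tests that include them are also given without them. In the other 4 lines IRF4 lay above 11 and TRAF1 above 7. PAX5, the factor that maintains B cell identity, lay above 7 only in UHO-1 (9.72) and SUP-HD1 (9.42).

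**Figure D1:**
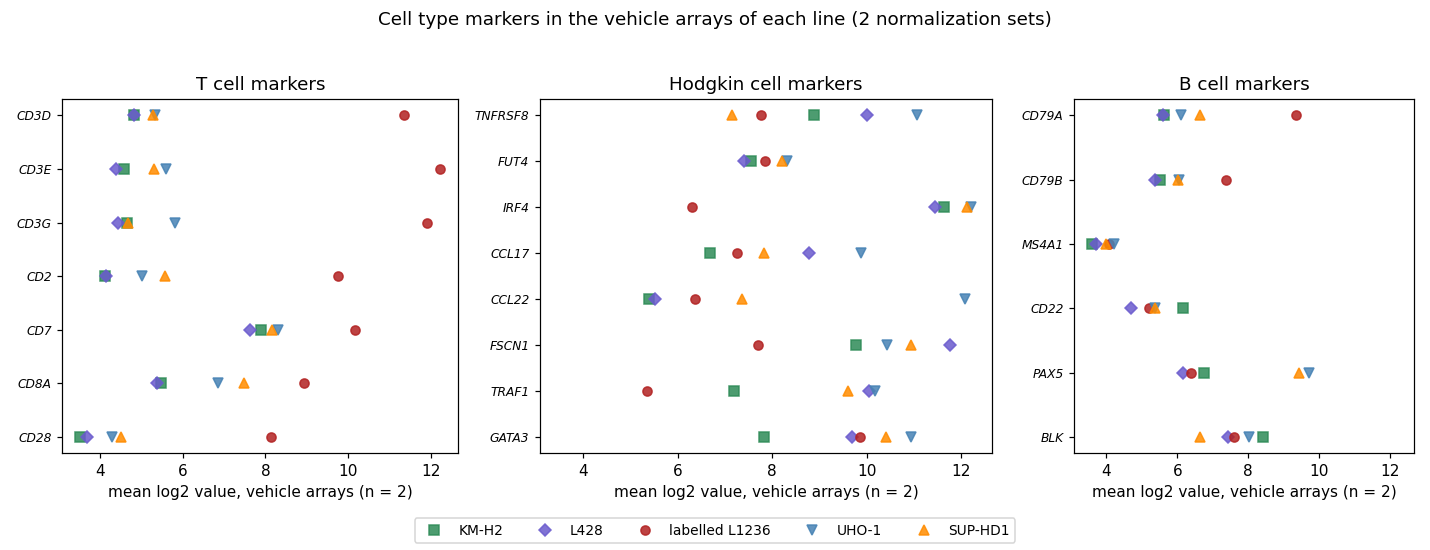
Mean log2 values of the T cell, Hodgkin cell and B cell markers in the 2 vehicle arrays of each line, 1 symbol per line, with values of the 2 normalization sets not comparable in level. Within their own set, beside UHO-1 and SUP-HD1, the arrays labelled L1236 (red circles) have the highest value of all 7 T cell markers and the lowest of IRF4 and TRAF1.

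In bulk RNA a smaller share of cells with a transcript and less of it per cell cannot be told apart. Of the 35 combinations of tested member and line, 6 passed the test (limma, Benjamini-Hochberg adjusted p below 0.05), 3 higher and 3 lower with 4-OHT. In KM-H2, CD22, BLK and LYN fell, 3 of 7 members, where 12.3% of all tested genes were lower and 10.0% higher. In L428, BLK rose, 1 of 7, beside 12.0% of all genes higher and 17.5% lower. In the arrays labelled L1236, CD79A rose, 1 of 7, beside 8.25% higher and 14.9% lower. BLK rose in UHO-1, 1 of 7, beside 13.4% higher and 11.1% lower, and in SUP-HD1 the count was 0 of 7 by limma, with 0 of 7 at an unadjusted p below 0.05, beside 3.68% of all genes higher and 2.35% lower. Outside KM-H2 the number of members called was thus near or below what the share of all genes would give in a list of this size, and the results are about single genes and their lines. No member was called in the same direction in more than 2 lines.

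**Figure D2:**
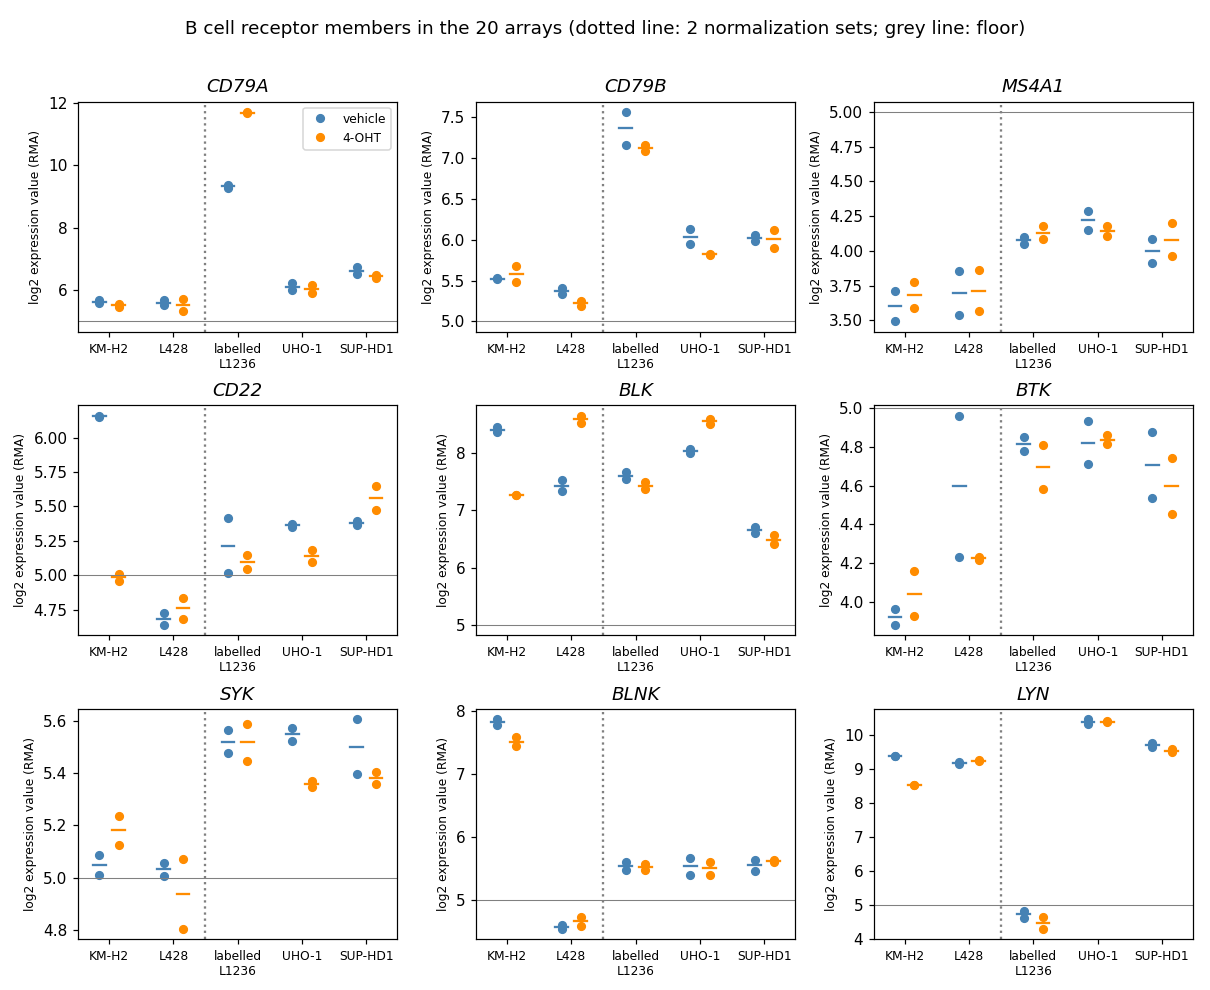
Log2 RMA values of the 9 members in each of the 20 arrays (points) with the mean of each arm (bars), by line; the dotted line separates the 2 normalization sets and the grey line is the floor of 5. CD79A lies above 11 in the 4-OHT arrays labelled L1236, BLK moves down in KM-H2 and up in L428, and MS4A1 and BTK lie under the floor throughout.

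CD79A (probe set 8029136), the alpha signalling chain, rose only in the arrays labelled L1236 among the 5 lines tested. Its vehicle values there were 9.28 and 9.39, and its 4-OHT values 11.71 and 11.68. The arms lay far apart, and CD79A gained 2.36 ± 0.13 log2 units (limma's SE, 2 arrays in each arm), which is 5.15-fold, with a limma adjusted p of 3.07e-12. It was the 22nd largest rise among the 15850 genes. In the other lines CD79A was low in both arms, near the floor in KM-H2 and L428, and passed no test. It read 5.69 and 5.58 with vehicle and 5.47 and 5.55 with 4-OHT in KM-H2, and 5.68 and 5.51 against 5.34 and 5.71 in L428. UHO-1 gave 6.23 and 5.997 against 6.17 and 5.92, and SUP-HD1 gave 6.75 and 6.51 against 6.48 and 6.40. The changes in these 4 lines lay between -0.19 and -0.07, and their 95% intervals together reached from -0.45 to 0.19. Without treatment the arrays labelled L1236 already had 3.22 ± 0.13 log2 units more CD79A than UHO-1 (9.31-fold, adjusted p = 2.61e-16) and 2.70 ± 0.13 more than SUP-HD1 (6.50-fold), and SUP-HD1 had 0.52 ± 0.13 more than UHO-1 (adjusted p = 0.00117). Within that normalization set the gene rose in the arrays where its vehicle level was highest, those whose T cell markers were high. With a rise in 1 line only, a relation of level and response cannot be shown. With 4-OHT the summed log2 values of the 7 T cell markers went from 72.5 in both vehicle arrays to between 71.1 and 72.0, with 2 markers higher and 2 lower, and those of the 6 measured myeloid markers from between 31.2 and 32.3 to between 35.6 and 36.1, where LYZ alone was called. Of the 7 plasma cell markers 5 were tested, with 1 higher and 2 lower, and their sum over the 7 went from between 45.0 and 45.7 to between 49.1 and 49.6: PRDM1, a repressor that drives plasma cell differentiation, rose by 5.04, from 5.33 to 10.36 (limma adjusted p = 2.67e-18), while MZB1 fell by 0.87 and XBP1 by 0.22. Of the Hodgkin cell markers 0 of 8 were called by limma in these arrays. The part of any of these in the CD79A result was not tested.

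CD79B (probe set 8017511), the partner chain, did not rise with CD79A. In the arrays labelled L1236 it read 7.16 and 7.57 with vehicle and 7.17 and 7.09 with 4-OHT, a change of -0.24 ± 0.13 (adjusted p = 0.211) whose 95% interval ran from -0.50 to 0.02, so a rise of the size seen for CD79A lay outside it. The arms overlapped there. Leaving out the first vehicle array gave a fall of 0.44 that passed (adjusted p = 0.0226), where the alternatives as a whole gave 0.0226 to 0.931. In KM-H2 the values were 5.53 and 5.52 against 5.68 and 5.49, in L428 5.34 and 5.41 against 5.25 and 5.19, in UHO-1 5.94 and 6.13 against 5.82 and 5.82, and in SUP-HD1 5.99 and 6.06 against 5.90 and 6.12. None of these changes, from -0.22 to 0.06, passed, and the values of KM-H2 and L428 lie near the floor. In vehicle arrays CD79B shared the order of CD79A in part: the arrays labelled L1236 had 1.33 ± 0.13 more than UHO-1 (2.51-fold, adjusted p = 2.66e-09) and 1.34 ± 0.13 more than SUP-HD1 (2.53-fold), while UHO-1 and SUP-HD1 differed by 0.01, with a 95% interval from -0.25 to 0.27, and KM-H2 and L428 by 0.15 (-0.11 to 0.41).

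The sequence before the transcription start is shown for CD79A, the member that rose most, for CD22, the one that fell most, and for BLNK, the one whose level differed most between KM-H2 and L428. Each is the 250 bases upstream of the RefSeq start in GRCh38.p14, read 5′ to 3′ on the strand of the gene; entries existed for 5 of the 9 members, these and SYK and BTK. The array's own build is not given in the sources used here. Capitals mark matches to 4 motifs searched on both strands.
CD79A, chr19:41877029-41877278, + strand: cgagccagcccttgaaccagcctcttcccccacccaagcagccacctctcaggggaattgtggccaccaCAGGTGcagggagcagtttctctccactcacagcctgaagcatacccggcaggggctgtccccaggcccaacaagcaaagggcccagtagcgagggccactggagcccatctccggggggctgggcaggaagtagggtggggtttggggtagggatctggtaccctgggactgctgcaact
CD22, chr19:35328937-35329186, + strand: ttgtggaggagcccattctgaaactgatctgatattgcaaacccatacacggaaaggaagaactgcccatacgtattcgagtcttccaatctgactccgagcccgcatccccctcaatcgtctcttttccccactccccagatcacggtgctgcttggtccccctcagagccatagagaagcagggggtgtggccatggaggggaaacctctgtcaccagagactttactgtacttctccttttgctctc
BLNK, chr10:96271570-96271819, - strand: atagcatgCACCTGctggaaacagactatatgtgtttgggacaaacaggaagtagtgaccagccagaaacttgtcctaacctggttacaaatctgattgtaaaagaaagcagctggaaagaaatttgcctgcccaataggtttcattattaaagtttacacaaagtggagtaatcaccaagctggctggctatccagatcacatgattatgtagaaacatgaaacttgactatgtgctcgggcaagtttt
GTAAACA, the core bound by forkhead factors such as FOXO1, matched in none of the 3 windows, and 2.98% of the 35116 RefSeq windows of that length held it. CAGGTG, an E-box bound by E2A, matched 1 time in CD79A, 181 bases before the start, and 1 time in BLNK on the opposite strand, as CACCTG, 242 bases before it; 17.5% of all windows held it. CCCNNGGG, a sequence bound by EBF1, and the octamer ATGCAAAT matched in none of the 3, and 17.1% and 1.63% of all windows held them. GC content was 64.0% in CD79A, 52.8% in CD22 and 40.4% in BLNK, with a median of 58.0% over all windows. No match says only that these letters are not in the window.

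CD22 (probe set 8027837), the inhibitory lectin of B cells, fell in KM-H2. Its vehicle values were 6.16 and 6.15 and its 4-OHT values 5.01 and 4.96, at the floor. The arms did not overlap, which held for 58.0% of all tested genes in KM-H2. The mean with 4-OHT was 4.98, so the fall is given as a bound against the floor of 5, at least 2.23-fold; the measured difference was 1.17 ± 0.12 log2 units (adjusted p = 7.28e-08). Elsewhere CD22 lay near the floor and passed nowhere: 4.73 and 4.64 against 4.68 and 4.83 in L428, 5.42 and 5.01 against 5.05 and 5.14 in the arrays labelled L1236, 5.35 and 5.37 against 5.19 and 5.10 in UHO-1, and 5.40 and 5.37 against 5.65 and 5.47 in SUP-HD1. Those changes ran from -0.22 to 0.18. Before treatment KM-H2 had at least 2.23-fold more CD22 than L428, whose vehicle mean of 4.68 lay under the floor (adjusted p = 2.26e-10), and with 4-OHT both lines were under it. The other 3 lines had vehicle means between 5.21 and 5.38, and none of their differences passed (adjusted p from 0.259 to 0.906), though without the first vehicle array labelled L1236 those arrays were lower than UHO-1 (adjusted p = 0.0232, range over alternatives 0.0232 to 0.775) and SUP-HD1 (0.0164, range 0.0164 to 0.844).

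MS4A1 (probe set 7940287) encodes CD20, the surface protein of mature B cells that therapeutic antibodies bind. It had no array at the floor, with arm means between 3.60 and 3.71 in L428 and KM-H2 and between 3.998 and 4.22 in the remaining lines. In all 5 lines its 2 arms overlapped. Fitted without a floor, its changes lay between -0.08 and 0.08, with adjusted p from 0.680 to 0.950 for a probe set whose signal is near background.

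BLK (probe set 8144625), a SRC family kinase largely restricted to B cells, moved in opposite directions in KM-H2 and L428. In KM-H2 it went from 8.36 and 8.45 to 7.27 and 7.26, a fall of 1.14 ± 0.094 log2 units or 2.20-fold (adjusted p = 2.10e-09). In L428 it went from 7.33 and 7.53 to 8.65 and 8.52, a rise of 1.15 ± 0.094 or 2.22-fold (adjusted p = 2.39e-09). The direction was thus opposite at nearly equal size, and the 2 lines exchanged places: vehicle KM-H2 had 0.97 ± 0.094 more BLK than vehicle L428 (adjusted p = 4.22e-09), while with 4-OHT the means were 7.27 and 8.58. UHO-1 rose too, from 8.06 and 7.999 to 8.59 and 8.51, by 0.52 ± 0.094 (1.43-fold, adjusted p = 3.64e-04). In the arrays labelled L1236 the values were 7.66 and 7.54 against 7.37 and 7.49, and in SUP-HD1 6.60 and 6.71 against 6.41 and 6.56. These last 2 changes, -0.17 and -0.17, did not pass (limma adjusted p = 0.224 and 0.410). The arms did not overlap in either, which held for 49.4% of all tested genes in the arrays labelled L1236 and 44.5% in SUP-HD1. Vehicle levels in that normalization set ran from UHO-1 (8.03) over the arrays labelled L1236 (7.60) to SUP-HD1 (6.65), and both steps passed, at 0.43 ± 0.094 (adjusted p = 4.18e-04) and 0.95 ± 0.094 (5.05e-09).

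LYN (probe set 8146500), the SRC family kinase that both starts and restrains receptor signalling, fell in KM-H2 from 9.38 and 9.38 to 8.52 and 8.53. The arrays of each arm were nearly identical, and the fall of 0.86 ± 0.093 log2 units was 1.81-fold (adjusted p = 1.87e-07). LYN was high and passed no test in L428 (9.16 and 9.21 against 9.23 and 9.26), UHO-1 (10.47 and 10.34 against 10.40 and 10.40) and SUP-HD1 (9.77 and 9.65 against 9.49 and 9.58). In UHO-1 the 95% interval of the change ran from -0.20 to 0.19. The arrays labelled L1236 had LYN under the floor, at 4.62 and 4.84 against 4.64 and 4.31. Against the floor their vehicle level was at least 42.3-fold lower than that of UHO-1 (adjusted p = 3.10e-23) and at least 26.1-fold lower than that of SUP-HD1 (adjusted p = 2.37e-22). Their change of -0.25 ± 0.093, between values that are all under the floor, had an adjusted p of 0.0541, and it passed at a floor of 6 (0.0470) or 7 (0.0417) or without the first array of either arm (0.0176 and 0.00237), with a range of 0.00237 to 0.709 over the alternatives. Those arrays were therefore the highest in their set for CD79A and CD79B and the lowest for LYN. UHO-1 had 0.69 ± 0.093 more LYN than SUP-HD1 (adjusted p = 8.16e-07), and KM-H2 had 0.20 ± 0.093 more than L428, which missed the threshold (adjusted p = 0.0788) but passed without the arrays labelled L1236 in the fit (0.0104, range over alternatives 0.00963 to 0.241).

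SYK (probe set 8156321), the kinase that docks on the phosphorylated tails, passed no test in any line. Its values spanned 4.81 to 5.61 over the 20 arrays. The changes ran from -0.19 ± 0.11 in UHO-1, where 5.52 and 5.57 stood against 5.35 and 5.37, to 0.13 ± 0.11 in KM-H2, where 5.09 and 5.01 stood against 5.13 and 5.24. The 95% intervals over the 5 lines lay within -0.42 and 0.37; they describe the measured signal, which lies near the floor, where RMA compresses differences. Vehicle levels did not pass between any lines of a set either, with differences of 0.05 or less. BTK (probe set 8174051), the TEC family kinase that activates phospholipase C, read 3.88 and 3.96 with vehicle and 4.16 and 3.92 with 4-OHT in KM-H2, and 4.23 and 4.96 against 4.22 and 4.23 in L428. One vehicle array of L428 thus stood well above the other 3 of that line. In the 12 other arrays it lay between 4.45 and 4.94. Without a floor no change of BTK with 4-OHT passed (adjusted p from 0.117 to 0.957). In that fit vehicle KM-H2 had 0.67 less BTK than vehicle L428 (limma adjusted p = 0.00157), between values that are all under the floor. The L428 mean there includes its 1 higher array.

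BLNK (probe set 7935270), the adaptor that joins SYK to phospholipase C and BTK, was set apart by its level in KM-H2. Vehicle KM-H2 read 7.87 and 7.78 and vehicle L428 4.54 and 4.60, under the floor. Against the floor KM-H2 had at least 7.10-fold more BLNK (adjusted p = 1.14e-16), with a measured difference of 3.26 ± 0.12 log2 units. In the other lines BLNK lay between 5.39 and 5.67 in all 12 arrays, near the floor, where RMA compresses differences. Its vehicle means there differed by no more than 0.01. With 4-OHT it read 7.44 and 7.58 in KM-H2, a change of -0.31 ± 0.12 (adjusted p = 0.0631) that missed the threshold and passed where that normalization set was fitted alone (0.0452), without an intensity trend (0.0417) or on its 4 arrays alone (0.0188), with a range of 0.0188 to 0.347 over the alternatives. Its changes in the other lines lay between -0.03 and 0.08.

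**Figure D3:**
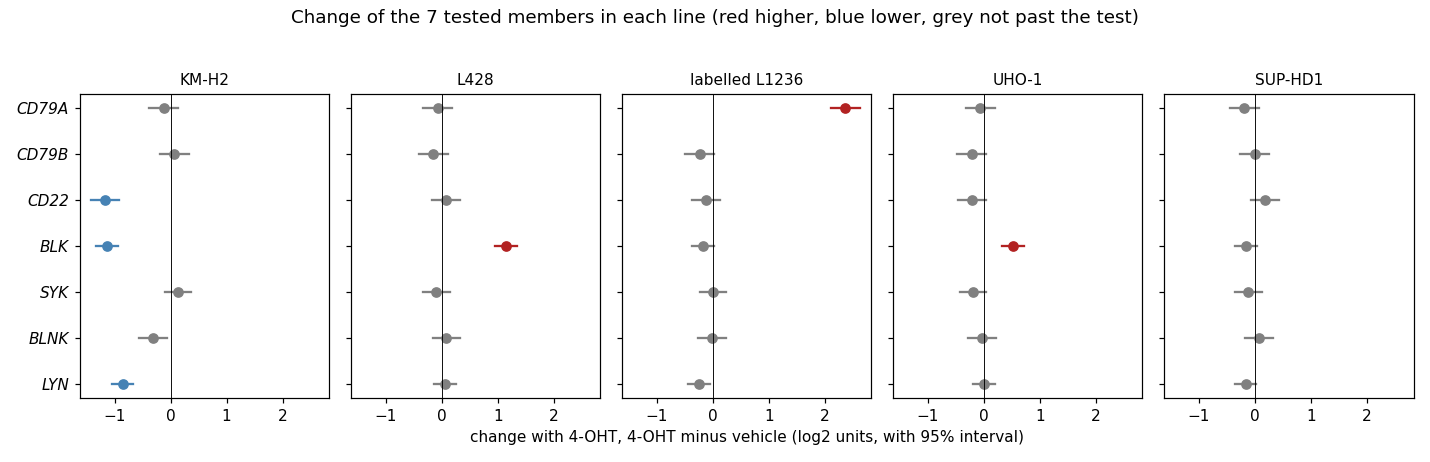
Change with 4-OHT (4-OHT minus vehicle, log2 units) of the 7 tested members in each line, with its 95% interval from limma; red points passed as higher, blue as lower, grey did not pass. CD22, BLK and LYN lie below 0 in KM-H2, BLK above 0 in L428 and UHO-1, CD79A at 2.36 in the arrays labelled L1236, and no member passed in SUP-HD1.

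Beside the falls of CD22, BLK and LYN in KM-H2 stood a large shift in stromal markers. Of 7 such genes, 3 rose and 1 fell in KM-H2 with 4-OHT: LUM, which encodes the proteoglycan lumican, went from a mean of 3.41 to 12.18, DCN from 3.37 to 6.76 and PDGFRA from 8.49 to 10.35, while COL1A1 fell from 7.44 to 6.82. The summed log2 values of the 7 genes went from between 39.3 and 39.6 to between 52.5 and 53.6. In L428 the sum went from between 35.4 and 35.6 to 36.6 in both arrays, and in the other lines the sums of the arms overlapped. Markers of other cell types moved in KM-H2 too. Of 8 Hodgkin cell markers 3 fell, TNFRSF8 (CD30) by 1.38, GATA3 by 1.29 and FSCN1 by 0.78, and their sum went from between 64.8 and 65.1 to between 61.3 and 62.1. Of 6 myeloid markers ITGAM fell, by 1.60, and the sum went from between 30.6 and 30.9 to between 28.5 and 29.4. Of 5 tested plasma cell markers PRDM1 rose by 2.37 and XBP1 by 0.18, with a sum over the 7 listed from between 45.5 and 45.9 to 48.0 and 48.1, and 0 of 7 T cell markers were called by limma. Beside the rise of BLK in L428, 4 of 8 Hodgkin cell markers fell, TNFRSF8 by 1.45 and FSCN1 by 1.08 among them. Of 5 tested plasma cell markers PRDM1 rose there by 1.29 and XBP1 by 0.35, and IRF4 fell by 0.31. In L428 1 of 6 myeloid and 1 of 7 stromal markers rose. Beside the rise of BLK in UHO-1, 2 of 8 Hodgkin cell markers fell, TNFRSF8 by 0.85 and FUT4 by 0.25. Of 5 plasma cell markers PRDM1 rose there by 0.47 and XBP1 by 0.31, and SDC1 fell by 0.47. In UHO-1 3 of 6 myeloid markers, 1 of 7 T cell markers and the B cell marker PAX5 (by 0.33) fell too. Of 7 stromal markers 2 rose and 1 fell there. The part of these shifts in the changes of the members was not tested.

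The number of members called in vehicle comparisons was 3 of 7 for KM-H2 against L428 (54.2% of all genes), 4 of 7 for the arrays labelled L1236 against UHO-1 (56.8%), 4 of 7 against SUP-HD1 (57.5%) and 3 of 7 for UHO-1 against SUP-HD1 (53.8%). The members thus differed between lines about as often as any gene. Averaged over the 5 lines with equal weight (n = 10 arrays per arm), CD79A rose by 0.38 ± 0.056 log2 units (adjusted p = 8.30e-06), and CD22 fell by 0.25 ± 0.054 (6.01e-04) and LYN by 0.24 ± 0.042 (5.23e-05), 1 of 7 higher and 2 of 7 lower where 17.4% and 21.2% of all genes were. Each of these rested on 1 line. Without the arrays labelled L1236 the average of CD79A was -0.11 and did not pass (adjusted p = 0.189), while CD22 (-0.28) and LYN (-0.24) did. Without KM-H2 the averages of CD22 (-0.02) and LYN (-0.091) did not pass (adjusted p = 0.838 and 0.182). BLK had an average of 0.04 that did not pass (0.515), and it was 0.33 without KM-H2 and -0.24 without L428, both past the test. With the 5 lines taken as the replicates 0 members passed in limma, with 0 of 7 at an unadjusted p below 0.05 (0 of 15850 genes, 2373 unadjusted).

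An F test asked whether the change differed between the 5 lines, which it did for 42.7% of all genes. It passed for 4 of 7 members, BLK (adjusted p = 8.88e-11), CD79A (1.63e-10), CD22 (6.76e-06) and LYN (4.34e-05), and for CD79B (0.470), SYK (0.420) and BLNK (0.238) it did not. Without the arrays labelled L1236, BLK, CD22 and LYN still differed between the remaining 4 lines (2.37e-10, 1.10e-06 and 2.42e-07) and CD79A did not (0.922). The share of all genes past the F test in that fit was not counted, so these members cannot be set against it. Set against the mean change of the other 4 lines, KM-H2 was lower for 4 of 7 members (20.5% of all genes in either direction): BLK by 1.47 ± 0.11 log2 units, CD22 by 1.15 ± 0.13, LYN by 0.77 ± 0.10 and CD79A by 0.63 ± 0.14. L428 differed for 4 of 7 (20.5%), higher for BLK (1.39), CD22 (0.41) and LYN (0.38) and lower for CD79A (-0.57). The arrays labelled L1236 differed for 1 of 7 (23.7%), CD79A at 2.48, UHO-1 for 2 of 7 (16.0%), BLK at 0.60 and CD79A at -0.56, and SUP-HD1 for 2 of 7 (6.59%), CD22 at 0.54 and CD79A at -0.72. In the 4 lines where CD79A was lower, the mean of the others contained its rise in the arrays labelled L1236, and the values of L428 and SUP-HD1 for CD22 and of L428 for LYN contained the falls of these genes in KM-H2, LYN itself having changed by 0.06 in L428 (adjusted p = 0.699).

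The 3 members with the widest range of line changes were CD79A (2.56 log2 units), BLK (2.29) and CD22 (1.35). Their deviations from the vehicle mean of the own line were correlated over the 10 4-OHT arrays with those of 3907 genes that changed by at least 0.5 in some line. Since the 2 arrays of a line share its change, r here describes 5 lines and carries no p. Most like CD79A were FCMR, the receptor for IgM (Pearson r = 0.993), KLF2, a quiescence factor of lymphocytes (0.992), and LYZ, lysozyme (0.991). They rose by 3.32, 2.73 and, for LYZ from a vehicle mean of 4.27 under the floor, 3.66 in the arrays labelled L1236 and lay between -0.33 and 0.13 elsewhere, so the likeness is to genes that moved in those arrays. Most like BLK were SEMA4B (0.990), VAV2 (0.984), an exchange factor downstream of the receptor, and CYFIP1 (0.980). VAV2 fell by 0.53 in KM-H2 and rose by 0.64 in L428, where BLK changed by -1.14 and 1.15, and in UHO-1 it stood at 0.21 and did not pass (adjusted p = 0.107), where BLK rose by 0.52. Most like CD22 were FERMT1 (0.986), MYO1G (0.982) and ITM2C (0.980), of which MYO1G, a myosin of haematopoietic cells, fell by 1.67 in KM-H2 and was at 0.58 in L428 and 0.84 in SUP-HD1.

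**Figure D4:**
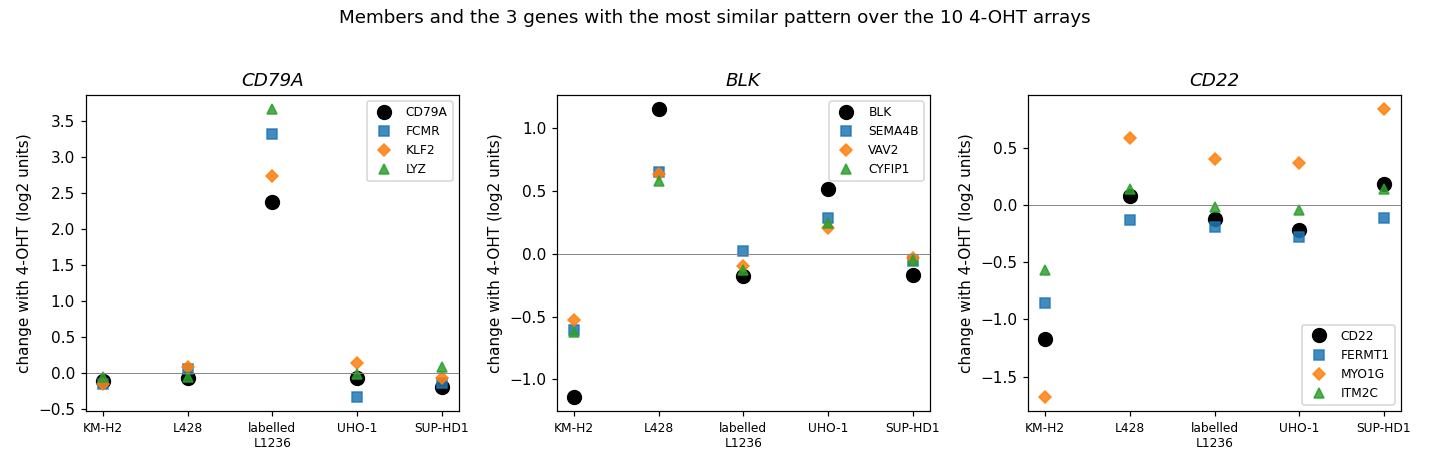
Change with 4-OHT (log2 units) in each line of CD79A, BLK and CD22 (black) and of the 3 genes with the highest Pearson r to each over the 10 4-OHT arrays. FCMR, KLF2 and LYZ stand above 2.5 in the arrays labelled L1236 beside CD79A, and SEMA4B, VAV2 and CYFIP1 are negative in KM-H2 and positive in L428 like BLK.

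The rest of the receptor pathway was read from 10 lists of 127 genes, of which 108 were tested. The lists were chosen with earlier results of these data known, so the shares below are a description with no test. In KM-H2 14 of these rose and 29, or 26.9%, fell, beside 10.0% and 12.3% of all genes. The counts were 19 and 23 in L428 (17.6% and 21.3%, beside 12.0% and 17.5%), 15 and 17 in UHO-1 (13.9% and 15.7%, beside 13.4% and 11.1%), 9 and 5 in SUP-HD1 (8.33% and 4.63%, beside 3.68% and 2.35%), and 23 and 16 in the arrays labelled L1236 (21.3% and 14.8%, beside 8.25% and 14.9%). On average 30 rose and 29 fell (27.8% and 26.9%, beside 17.4% and 21.2% of all genes), and 23 and 29 without the arrays labelled L1236 (21.3% and 26.9%, beside 18.2% and 21.0%). The counts of the single lists below are averages over the 5 lines, to be read against 17.4% higher and 21.2% lower, and each is followed by the count without the arrays labelled L1236. The median average change of the 108 was 0.0037 against -0.025 for all genes, with rises and falls about equal in number.

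Among the receptor's own surroundings, the 4 tested immunoglobulin and surrogate light chain genes gave 1 higher and 1 lower on average (0 and 1 without the arrays labelled L1236): IGLL1, part of the surrogate light chain, fell by 0.59 in UHO-1, and IGKC, the kappa constant region, rose by 0.28 in L428. Of 6 co-receptors, 1 was higher and 2 lower (1 and 1 without). CR2, a complement receptor of B cells, fell by 2.59 in KM-H2 and by 0.65 in L428 and rose by 2.26 in the arrays labelled L1236, so it fell with CD22 in KM-H2 and rose beside CD79A. CD38, a surface ectoenzyme of activated and plasma cells, gained 1.77 in UHO-1, 1.32 in L428, from under the floor, and 0.93 in the arrays labelled L1236, and CD81 fell by 0.28 in the arrays labelled L1236 and passed in no other line. Of 9 other inhibitory receptors, 0 were higher and 3 lower on average by limma (CEACAM1, SIGLEC10 and PECAM1; 0 and 2 without, where PECAM1 did not pass), and CEACAM1 fell by 1.26 in KM-H2, to under the floor, the line where CD22 fell.

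Of the 11 phosphatases and ubiquitin ligases that restrain the signal, 3 were higher and 3 lower on average (3 and 2 without). CBLB, a ubiquitin ligase that dampens antigen receptors, rose in all 5 lines, by 3.11 in KM-H2, 2.61 in L428, 1.75 in the arrays labelled L1236, 2.12 in UHO-1 and, least, by 0.79 in SUP-HD1. PTPN22, a phosphatase acting on SRC family kinases, fell by 1.00 in L428 and 0.51 in the arrays labelled L1236, while PTPN11 fell by 0.32 in L428 and INPP5D, the lipid phosphatase SHIP1, rose by 0.31 in L428 and fell by 0.32 in the arrays labelled L1236. Of the 9 other proximal kinases and their controls, 2 were higher and 3 lower (1 and 2 without). FYN, another SRC family kinase, rose by 1.32 in KM-H2, 1.498 in L428 and 1.73 in SUP-HD1, and by 0.68 in UHO-1. CSK, which holds SRC family kinases inactive, fell by 0.31 in KM-H2, 0.65 in L428 and 0.35 in UHO-1. TEC, a relative of BTK, fell by 1.18 in KM-H2, and PAG1, the membrane anchor of CSK, rose by 1.29 in the arrays labelled L1236 and 0.51 in KM-H2 and fell by 0.44 in SUP-HD1.

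Adaptors other than BLNK numbered 17, with 6 higher and 4 lower on average (4 and 3 without). GAB1, a docking protein for PI3-kinase, rose by 3.57 in KM-H2, 0.98 in SUP-HD1 and 0.89 in UHO-1, and its relative GAB2 rose by 1.34 in L428, 0.67 in SUP-HD1 and 0.80 in UHO-1. DAPP1 fell by 1.66 in KM-H2 and 0.44 in L428, and SLA, which promotes receptor turnover, fell by 1.13 in the arrays labelled L1236 and 0.38 in L428. Of 18 calcium and lipid effectors, 6 were higher and 4 lower on average, a balance that turned to 4 higher and 7 lower without the arrays labelled L1236. In KM-H2 10 of 18 were lower, with a median change there of -0.28 against -0.0026 for all genes. RAC2, a small GTPase, fell by 0.65 in KM-H2, 0.24 in L428 and 0.32 in UHO-1 and rose by 0.18 in the arrays labelled L1236. ORAI1, the calcium channel pore, fell by 0.31 in KM-H2, 0.34 in L428, 0.37 in the arrays labelled L1236 and 0.26 in UHO-1. VAV3 rose by 2.14 in KM-H2, from under the floor, and passed in no other line. RASGRP3, an activator of RAS, rose by 1.85 in L428 and 0.60 in UHO-1.

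The NF-kB and NFAT arm had 6 of 13 genes higher and 1 lower on average (7 and 2 without). MALT1, a protease of NF-kB signalling, rose in all 5 lines, by 0.98 in KM-H2, 0.80 in L428, 0.40 in the arrays labelled L1236, 0.82 in SUP-HD1 and 0.30 in UHO-1. Its partner BCL10 rose by 0.39 in L428 and 0.51 in UHO-1. PPP3CA, a calcineurin chain, rose by 0.62 in the arrays labelled L1236, 0.44 in L428 and 0.26 in KM-H2. NFATC2 rose by 0.81 in L428 and 0.35 in KM-H2 and fell by 0.63 in SUP-HD1. Of 13 transcription factors that control the receptor genes, 3 were higher and 6 lower on average (2 and 7 without). BCL11A fell by 1.46 in KM-H2, 0.79 in L428 and 0.87 in the arrays labelled L1236, IKZF3 fell in 4 lines by 0.25 to 0.66, and IKZF1 fell by 1.03 in L428. ID2, an inhibitor of E2A, rose by 2.21 in the arrays labelled L1236, where CD79A rose, and by 0.29 in UHO-1 and fell by 1.22 in KM-H2. Of 8 genes that receptor signals induce early, 2 were higher and 2 lower on average (1 and 2 without): MYC fell in all 5 lines, by 0.21 in UHO-1 to 2.44 in KM-H2, EGR1 rose by 0.50 in L428 and 0.72 in SUP-HD1, DUSP2 fell by 0.43 in KM-H2 and 0.40 in L428, and CD69 rose by 0.35 in L428 and 0.55 in the arrays labelled L1236.

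**Figure D5:**
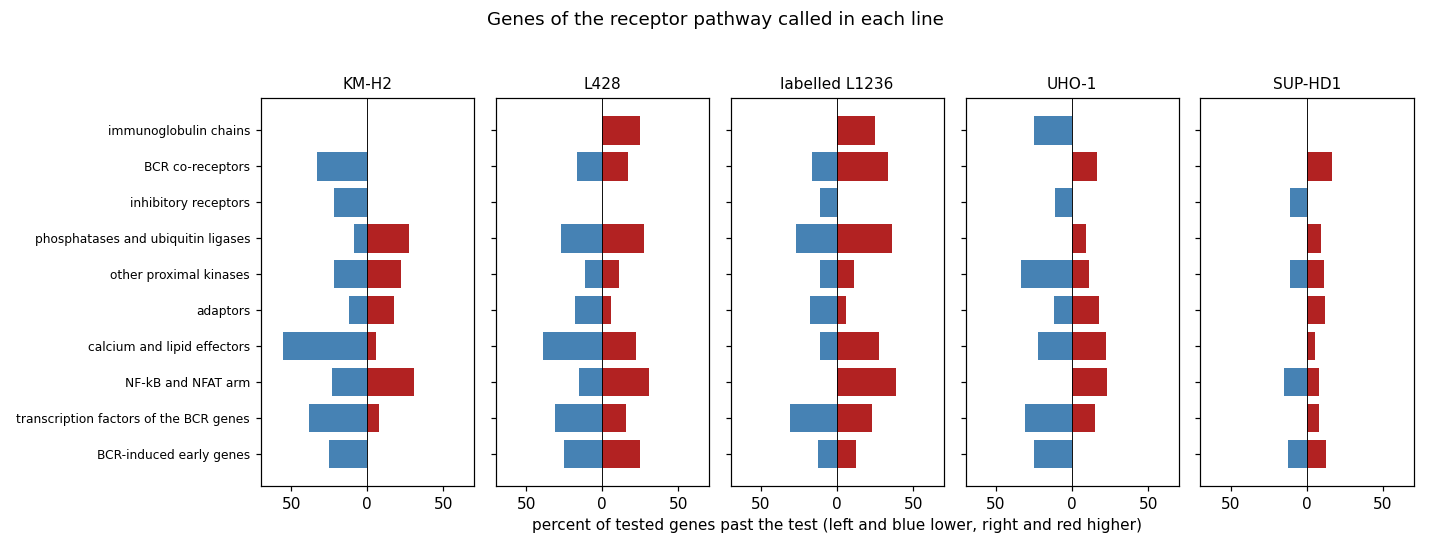
Percent of the tested genes of each of the 10 pathway lists that passed as lower (blue, left) or higher (red, right) with 4-OHT in each line. In KM-H2 10 of 18 calcium and lipid effectors are lower, and in SUP-HD1 no list has more than 2 genes in either direction.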

How the data were processed

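Total RNA of 5 cell lines was measured with 20 Affymetrix Human Gene 1.0 ST arrays. Per the series design text and the submitters' processing notes, the authors deposited log2 values made by robust multichip average (RMA) in Expression Console; the version is not given in the sources used here. RMA subtracts background, equalizes distributions and summarizes probes, so a level near background is compressed. Sorted values differed by at most 0.253 within KM-H2 and L428 and 0.204 within the other lines, and by at least 0.712 between them, so the sets were normalized separately.

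Of 33268 probe sets, 19457 had 1 gene symbol; for 767 genes with several, the one with the highest mean was used. A model of the 10 group means was fitted with limma 3.58.1 in R 4.3.3 (lmFit, eBayes with a trend, 10 residual and 11.8 prior degrees of freedom), and p-values were adjusted by Benjamini-Hochberg over the 15850 genes. The script was tested on simulated data. Errors are limma's standard errors. The members and lists were chosen with earlier results of these data known. From each list up to 4 genes with the smallest p on average among those past the test were named, plus any called alike in all 5 lines, and like genes by Pearson r. FCGR2B was added for its fall in KM-H2. Other genes that changed in 1 line can be missing under this rule. The main fit did not pair arrays by replicate number. The r of same-numbered deviations ran from -0.56 in the arrays labelled L1236 to 0.28 in SUP-HD1 and 0.29 in UHO-1, so a shared replicate structure is possible. The number of arrays limits precision.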

Additional observations from a re-analysis of the deposited data

Results flagged for a closer look

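The change with 4-OHT differed between the 5 lines for 4 members, by the F test of the difference itself in limma. For BLK (adjusted p = 8.88e-11) the lines split in direction, with a fall of 1.14 log2 units in KM-H2 and rises of 1.15 in L428 and 0.52 in UHO-1. For CD79A (1.63e-10) the arrays labelled L1236 alone carried the difference, at 2.36, and without them the test gave 0.922. For CD22 (6.76e-06) the change was -1.17 in KM-H2 and between -0.22 and 0.18 elsewhere. For LYN (4.34e-05) it was -0.86 in KM-H2 and between -0.25 and 0.06 elsewhere.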

How the results depend on the processing

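Of 40 settings, 20 of which left out 1 array, each member's result was recomputed under the 29 to 38 that could give it. The 6 calls of a member in a line held in all of those that gave a value, as did the 14 calls between vehicle levels. In the arrays labelled L1236 the count of members called was 1 and became 2 with a floor of 6 or of 7, where LYN joined, and 1 to 3 when 1 array was left out. The count on average was 3; it was 1 in L1236, UHO-1 and SUP-HD1 alone and 0 with the lines as replicates. The average of CD79A turned to -0.097 in KM-H2 and L428 alone and to -0.11 without the arrays labelled L1236, and that of BLK to -0.24 without L428; which lines entered is what differs there. Median centring, quantile normalization and cyclic loess shifted the median of all genes by less than 0.1 in each line. With the replicate number as a block, the members called were 3 in KM-H2, 1 each in L428, UHO-1 and the arrays labelled L1236 and 0 in SUP-HD1, and 3 on average, so no call changed. Same-numbered arrays labelled L1236 deviated in opposite directions (r = -0.56). Their numbers were therefore also crossed in the block, a choice made after seeing the data like the fit without those arrays. Then 2 members were called there, with LYN joining (limma adjusted p = 0.0124), and 4294 genes against 3661. Under the same block BLNK passed as lower in KM-H2 (0.0301), and 5360 genes against 3878 were called in UHO-1. A signal near background limits MS4A1, BTK, CD22 and SYK, and BLNK and LYN where they lie under the floor.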
